A study of Mus musculus with 13 samples.

Results

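The 8 genes described here are Cish and Socs1 to Socs7, the family of cytokine-inducible feedback inhibitors, in mouse bone marrow after blood loss. Members were taken by gene symbol, which gave 8 of the 19938 genes measured and 12 probe sets. A gene with several probe sets is given by its brightest, judged by the mean over the 13 arrays. RNA from 13 femoral marrow samples of male C57BL/6 mice aged 6 weeks was hybridised to Affymetrix Mouse Gene 1.0 ST arrays, with 1 array for each sample. The samples were controls collected at baseline (n = 3) and mice from which 500 µL of blood had been drawn behind the eye, at 4 h after the bleed (1 sample), at 9 h (3 samples) and at 12, 15 and 48 h (2 samples at each time). All carried the same strain, sex and age, and no allele or agent separated the groups other than the bleed. The labels used here name no sham puncture for the controls. Nothing in them tells whether replicates came from different animals, and the p-values may then reflect technical spread alone.

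Blood loss raises erythropoietin, which binds its receptor on erythroid precursors and activates the kinase JAK2. JAK2 in turn activates the transcription factor STAT5. STAT5 induces Cish, whose product CIS binds the phosphorylated receptor and damps the signal, so that Cish is widely read as a marker of STAT5 activity. The SOCS proteins share an SH2 domain that docks on phosphorylated receptors or kinases and a SOCS box that recruits a ubiquitin ligase. SOCS1 and SOCS3 also block JAK kinases directly, SOCS1 mainly below interferon receptors and SOCS3 mainly below receptors of the IL-6 family and the G-CSF receptor. SOCS2 restrains growth hormone signalling, SOCS4 and SOCS5 have been linked to the EGF receptor, and SOCS6 and SOCS7 to insulin signalling. Phosphorylation of STAT5 was not measured on these arrays, which hold transcript levels only.

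The promoters of the pair of members that moved are shown because they differ in the STAT5-type motif TTCNNNGAA, printed in capitals. Sequences are from RefSeq, build GRCm38.p6, and run 5′ to 3′ on the gene's own strand from 250 bases before to 50 bases after the listed start. The table used here held promoters of 4 of the 8 members, Cish, Socs1, Socs3 and Socs4.

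Cish, chr9:107296409-107296708, plus strand: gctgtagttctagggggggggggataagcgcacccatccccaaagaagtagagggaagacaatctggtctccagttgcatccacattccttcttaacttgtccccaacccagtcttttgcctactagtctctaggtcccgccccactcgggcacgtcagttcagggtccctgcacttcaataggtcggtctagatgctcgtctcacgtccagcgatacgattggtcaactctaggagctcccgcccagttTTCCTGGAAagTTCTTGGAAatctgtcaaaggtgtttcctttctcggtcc

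Socs3, chr11:117969317-117969616, minus strand: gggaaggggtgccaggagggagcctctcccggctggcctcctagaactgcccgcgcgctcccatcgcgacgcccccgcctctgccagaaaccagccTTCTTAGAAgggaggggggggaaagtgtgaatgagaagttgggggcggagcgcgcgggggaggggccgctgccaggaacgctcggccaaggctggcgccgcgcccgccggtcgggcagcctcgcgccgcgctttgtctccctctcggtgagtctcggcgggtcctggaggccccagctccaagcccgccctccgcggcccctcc

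The Cish window held 2 copies of the motif, TTCCTGGAA at bases 1 to 9 and TTCTTGGAA at bases 12 to 20 counted from the listed start. The Socs3 window held 1 copy, TTCTTAGAA, at bases -154 to -146. The windows of Socs1 on chromosome 16 and of Socs4 on chromosome 14 held 0. TTCNNNGAA reads the same on both strands, and of 32851 promoter windows of this length 8.30% held at least 1 copy and 0.457% at least 2. The Cish window is set on the 5′ end of the gene's annotated span, whereas the start listed for Socs3 lies inside the annotated span of the gene, whose 5′ end is further upstream. A match describes letters only and is not a measured binding site.

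The title numbers of the samples fall into a first run of 10 arrays and a second run of 3 arrays, namely control replicate 3 and 9 h replicates 1 and 2. Median log2 levels were 6.98 to 7.03 in the first run and at least 7.77 in the second. A value was repeated on at least 2 arrays for 62.3% of probe sets in the second run, and for no more than 0.110% in any trio of first-run arrays. Levels are therefore compared only within a run, and changes come from 1 limma fit to all 13 arrays with a term for the run, as log2 change ± standard error. Adjusted p-values are Benjamini-Hochberg values over all 19938 genes, with a threshold of 0.05. Markers of the labelled tissue were bright on all first-run arrays, with Slc4a1 of red cell precursors at 12.96 to 13.50, Mpo of granulocyte precursors at 12.67 to 12.86 and Pax5 of B cells at 9.56 to 10.14. The single 4 h array also carried transcripts of other tissues: 17 of 20 small intestine markers and 12 of 14 skeletal muscle markers stood more than 1 log2 unit above the control mean of the run. The 48 h arrays had 8 and 6 of 18 liver markers above that line. For skeletal muscle 48 h replicate 1 had 7 of 14 markers above it and 9 h replicate 3 had 3. Some small intestine markers were also higher in the controls than at 9 to 48 h. Reg3g read 7.61 and 7.54 in the first-run controls and 5.17 to 6.11 on the first-run arrays of those times. For the mean of 9, 12 and 15 h limma called 7 of the 20 lower than control, as it did 27 of all 19938 genes. The part of these transcripts in the comparisons with control was not tested. In bulk marrow, fewer cells of a type and less RNA per cell cannot be told apart.

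Of the 8 members, Cish rose at 9, 12 and 15 h and Socs3 in the mean of those times. Both were also called higher at 4 h, a group of 1 array that carried transcripts of other tissues and borrowed its spread from the other groups, while the other members passed the test at no time against control. By 48 h both Cish and Socs3 had fallen below their level at 9 to 15 h. The Socs3 calls rest on the brighter of its probe sets. The dimmer one changed by -0.03 for the mean of 9, 12 and 15 h and by 0.12 at 48 h relative to it. With the mean of both probe sets the Socs3 change for 9, 12 and 15 h did not pass in limma (adjusted p = 0.247). Against control 2 of 8 members were called higher at 4 h, where 1.74% of all genes were, and 1 of 8 at 9 h, where 0.0502% were. At 12 h 1 of 8 was called higher, against 0.0853% of all genes, and at 15 h 1 of 8, against 0.211%. For the mean of 9, 12 and 15 h the count was 2 of 8, against 0.652% of all genes. At 48 h limma called 0 of 8, against 0.376% of all genes in either direction, and 1 member had an unadjusted p under 0.05, as had 2790 of all 19938 genes. The median change over the 8 members was 0.14 at 4 h and 0.06 for the mean of the middle times, beside a median within 0.02 of 0 over all genes in each comparison with control. No member was called lower than control.

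**Figure D1:**
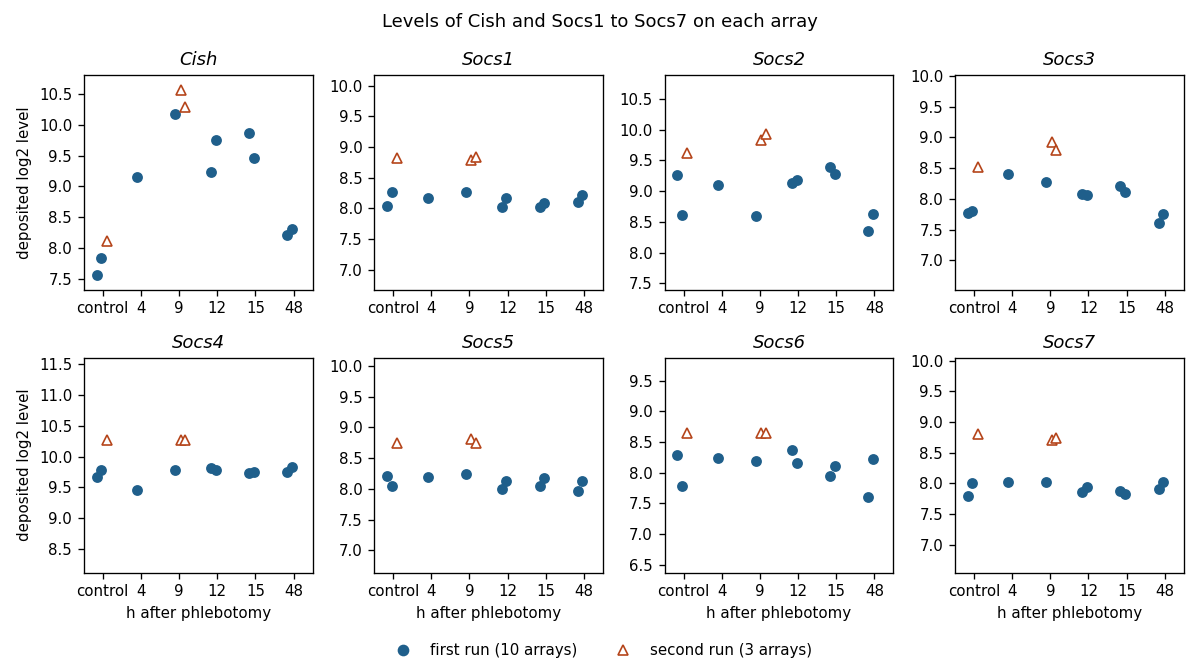
Deposited log2 level of each of the 8 members on every array, by time after phlebotomy in hours with controls at the left. Filled circles are the first run and open triangles the second, and every panel spans the same range. In the first run the Cish arrays at 4 to 15 h sit between 9.15 and 10.18, above the controls at 7.56 and 7.83.

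Cish (chr9:107296659-107302784) carried the clearest time course. In the first run its log2 level was 7.56 and 7.83 in the controls, 9.15 at 4 h, 10.18 at 9 h, 9.23 and 9.75 at 12 h, 9.88 and 9.46 at 15 h and 8.21 and 8.31 at 48 h. In the second run it was 10.57 and 10.30 at 9 h, against 8.11 in the control. Every phlebotomised array therefore lay above the controls of its run, and the 48 h arrays lay below every first-run array of the earlier times.

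The fitted rise of Cish over control was 1.43 ± 0.22 in the single 4 h sample, or 2.70-fold (adjusted p = 0.00409). At 9 h it was 2.40 ± 0.16, or 5.29-fold (adjusted p = 9.98e-05), the highest change of all 19938 genes in that comparison. Within the first run alone 9 h exceeded control by 2.48 (1 array against 2), and within the second by 2.33 (2 arrays against 1). The change was 1.77 ± 0.17 at 12 h (3.41-fold, adjusted p = 0.00347), where Cish again ranked first. It was 1.94 ± 0.17 at 15 h (3.85-fold, adjusted p = 0.00143), where Cish ranked the second highest.

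Among the risen times the order of the Cish changes was 9 h, 15 h, 12 h and 4 h. Neighbouring times among 9, 15 and 12 h did not pass a test of their difference, and 12 h was not tested against 4 h. The difference of 15 h from 9 h was -0.46 (adjusted p = 0.485) and that of 15 h from 12 h was 0.17 (adjusted p = 0.916). The difference of 9 h from 4 h was 0.97 ± 0.24 (adjusted p = 0.0825). It passed with the run as a random block (adjusted p = 0.0249), without either 12 h replicate (0.0481) and without control replicate 1 (0.0354). Between 12 h and 9 h Cish differed by -0.63 ± 0.20 (adjusted p = 0.408). In the comparisons among 9, 12 and 15 h limma called 0 genes, members included, with 1055 to 2228 genes at an unadjusted p under 0.05.

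Cish was lower again at 48 h. It fell by 1.50 ± 0.15 on the log2 scale at 48 h relative to the mean of 9, 12 and 15 h (adjusted p = 0.00114), the lowest change of all genes in that comparison, where 0.0953% of genes were called lower and 2 of 8 members were. At 48 h the change was -1.87 ± 0.20 relative to 9 h (adjusted p = 0.00281), where 0.0201% of genes and 1 of 8 members were called lower. Relative to 12 h the change was -1.23 ± 0.18 (adjusted p = 0.0231), with 0.0301% of genes and 1 of 8 members called lower. Relative to 15 h it was -1.41 ± 0.18 (adjusted p = 0.00879), with 0.0903% of genes and 2 of 8 members called lower. The call for 48 h relative to the mean of the middle times held without any single array. That relative to 9 h was lost without 9 h replicate 3, where the adjusted p was 0.284. The calls relative to 12 h and 15 h were lost in 3 and 2 of 13 such fits, with adjusted p up to 0.232 and 0.112, both without 48 h replicate 1.

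Whether Cish was fully back at its control level by 48 h was not resolved. Both 48 h arrays lay above both controls of the run, and the fitted difference was 0.54 ± 0.17 or 1.45-fold, with a 95% interval of 0.15 to 0.92. Its unadjusted p was 0.0109 and its adjusted p 0.207. Leaving out each array in turn gave 0.43 to 0.61, with adjusted p between 0.180 and 0.421. The liver markers of these arrays averaged 7.32 and 6.96 at 48 h, against 6.00 and 6.08 in the controls, and their part in the Cish value was not tested.

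The erythroid markers, which mark the cells that answer to erythropoietin, are given beside Cish. Of 15 measured, 0 were called in limma for the middle times together against control, with a median change of -0.10 and 3 lower at an unadjusted p under 0.05, where 12.0% of all genes were in either direction. At 48 h, where Cish was low, their median change against control was 0.26 with 0 called. There 5 were higher at an unadjusted p under 0.05, where 2790 of all 19938 genes were in either direction. Relative to the middle times all 15 were above 0 at 48 h (median 0.34). Limma called 1 higher, as it did 176 of all 19938 genes, and 10 were higher at an unadjusted p under 0.05, beside 15.8% of all genes in either direction. At 4 h all 15 were below control (median -0.37), with 0 called. Of them 7 were lower at an unadjusted p under 0.05, beside 15.2% of all genes. Over the 10 arrays of the first run the mean erythroid marker level and Cish had a Pearson r of -0.32 and a Spearman rho of -0.13.

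**Figure D2:**
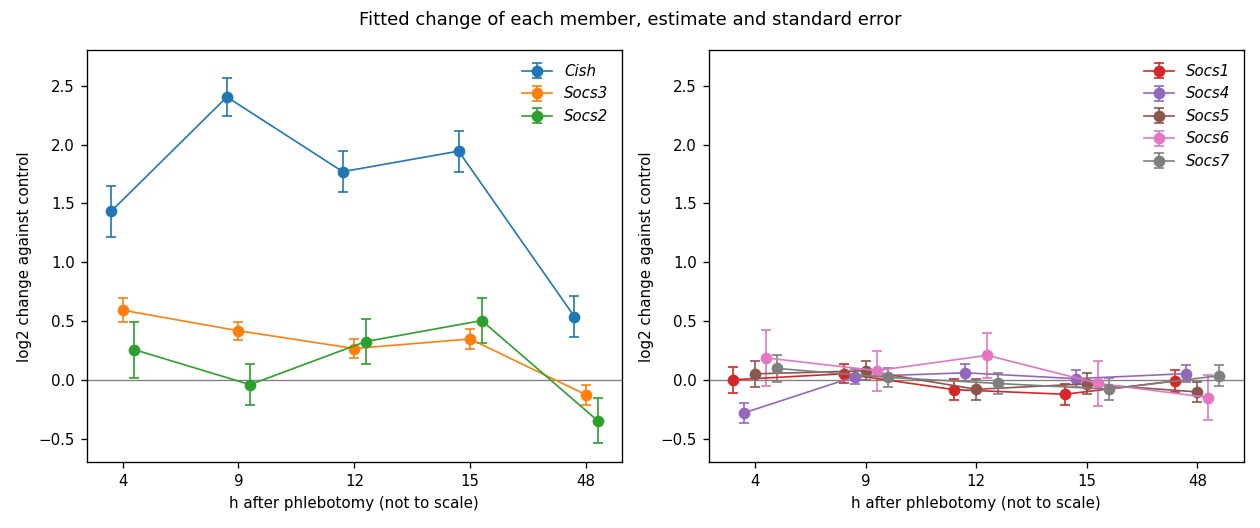
Fitted log2 change against control at 4, 9, 12, 15 and 48 h after phlebotomy (time not to scale), with bars of 1 standard error from the fit; Cish, Socs3 and Socs2 are on the left and the other 5 members on the right, on the same scale. Cish stands between 1.43 and 2.40 from 4 to 15 h, and Socs1, Socs5 and Socs7 lie between -0.12 and 0.10 at every time.

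Socs3 (chr11:117966079-117970336), the inhibitor of the IL-6 family and G-CSF receptors, rose by less than Cish and had its highest fitted change at 4 h. In the first run its log2 level was 7.77 and 7.81 in the controls, 8.40 at 4 h, 8.27 at 9 h, 8.09 and 8.07 at 12 h, 8.21 and 8.11 at 15 h and 7.61 and 7.76 at 48 h. In the second run it was 8.93 and 8.79 at 9 h, against 8.51 in the control. All arrays from 4 to 15 h lay above the controls of their run, and both 48 h arrays lay below them.

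The Socs3 change was 0.59 ± 0.10 at 4 h, or 1.51-fold (adjusted p = 0.0121). For the mean of 9, 12 and 15 h it was 0.34 ± 0.06, or 1.27-fold (adjusted p = 0.0314). The single times gave 0.42 ± 0.08 at 9 h (adjusted p = 0.125), 0.27 ± 0.08 at 12 h (adjusted p = 0.223) and 0.35 ± 0.08 at 15 h (adjusted p = 0.143), none past the threshold. Within the first run 9 h exceeded control by 0.49, and within the second by 0.35. The call for the mean of the middle times was lost in 8 of 13 fits that left out 1 array, with adjusted p up to 0.206 and a change of 0.32 to 0.38.

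Socs3 then fell by 0.47 ± 0.07 at 48 h relative to the mean of 9, 12 and 15 h (adjusted p = 0.0170). Relative to 15 h the change was -0.47 ± 0.09 (adjusted p = 0.0464). At 48 h it differed from control by -0.13 ± 0.08, with a 95% interval of -0.31 to 0.06 (adjusted p = 0.537). Without 48 h replicate 1 the fall relative to the middle times was 0.39 with an adjusted p of 0.236, and without 9 h replicate 3 its adjusted p was 0.0766. The fall relative to 15 h was lost in 10 of 13 such fits. Markers of the myeloid cells that express the G-CSF receptor also lay lower at 48 h than at the middle times. Of 16 neutrophil markers 15 had a fitted change below 0 (median -0.12), and of 13 monocyte and macrophage markers all 13 did (median -0.16). Limma called 0 of either list, with 4 of each lower at an unadjusted p under 0.05, beside 15.8% of all genes in either direction. This was not particular to myeloid cells. Of 13 T and NK cell markers 11 were also below 0 (median -0.30), and of 13 B lineage markers 12 (median -0.16). Of 14 osteoblast, stromal and endothelial markers 12 were (median -0.29). All 15 erythroid markers (median 0.34) and all 8 megakaryocyte and platelet markers (median 0.22) were above 0. The median over all genes was 0.01. The part of these cell types in the Socs3 fall was not tested.

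A second, dimmer Socs3 probe set did not follow. Its log2 level was 6.17 and 6.12 in the first-run controls, 6.27 at 4 h, 6.08 at 9 h, 6.12 and 6.00 at 12 h, 6.21 and 6.07 at 15 h and 6.32 and 6.12 at 48 h. Its change was 0.14 ± 0.11 at 4 h and -0.03 ± 0.08 at 9 h. With the mean of both probe sets the Socs3 change at 4 h was 0.37 (adjusted p = 0.0713), that for the middle times 0.16 (adjusted p = 0.247) and that of 48 h relative to them -0.18 (adjusted p = 0.201). The Socs3 values at 4 h come from the array whose small intestine markers averaged 9.14, against 6.36 and 6.29 in the first-run controls and 5.70 to 5.89 on the other first-run arrays, and the part of those transcripts in the Cish and Socs3 values at 4 h was not tested.

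Socs2 (chr10:95383903-95417321), the inhibitor of growth hormone signalling, passed no comparison with control although STAT5 is known to induce it. In the first run its log2 level was 9.26 and 8.61 in the controls, 9.09 at 4 h, 8.59 at 9 h, 9.14 and 9.19 at 12 h, 9.40 and 9.28 at 15 h and 8.35 and 8.62 at 48 h. In the second run it was 9.83 and 9.93 at 9 h, against 9.62 in the control. The first-run controls lay 0.65 apart. Both 15 h arrays lay above them, while at 4, 12 and 48 h the groups overlapped.

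The Socs2 change was 0.26 ± 0.24 at 4 h, -0.04 ± 0.17 at 9 h, 0.33 ± 0.19 at 12 h, 0.50 ± 0.19 at 15 h (adjusted p = 0.326) and -0.35 ± 0.19 at 48 h (adjusted p = 0.443). At 9 h the runs differed in sign, with -0.34 in the first and 0.26 in the second. Without control replicate 1, the higher of the first-run controls, Socs2 passed at 4 h (0.56, adjusted p = 0.0448), 12 h (0.63, adjusted p = 0.0370) and 15 h (0.81, adjusted p = 0.0171), and 48 h relative to the middle times fell by 0.57 (adjusted p = 0.0167). No other array had that effect on a comparison of Socs2 with control. A second Socs2 probe set had changes of 0.12 ± 0.20 at 4 h, 0.24 ± 0.16 at 15 h and -0.21 ± 0.16 at 48 h.

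Socs2 moved from array to array with the markers of osteoblasts, stroma and endothelium, a relation looked for after its values were seen. Those 14 markers averaged 10.10 and 9.59 in the first-run controls, 9.83 at 4 h, 9.18 at 9 h, 9.85 and 9.91 at 12 h, 9.86 and 10.05 at 15 h and 9.24 and 9.66 at 48 h. Over these 10 arrays the Pearson r with Socs2 was 0.88 and the Spearman rho 0.90, as a description of arrays that share groups and a normalization. The arrays low in Socs2, namely 9 h replicate 3, both 48 h arrays and control replicate 2, were those with the fewest stromal transcripts. Of the 14 markers 0 were called against control at 4, 9 or 48 h or for the middle times. At 9 h 13 of the 14 had changes below 0 (median -0.24). There 6 were lower at an unadjusted p under 0.05, beside 6.12% of all genes in either direction. At 4 h and at 48 h 1 was lower, and for the middle times 0, beside 12.0% to 15.2% of all genes. The part of these cells in the Socs2 values was not tested further.

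**Figure D3:**
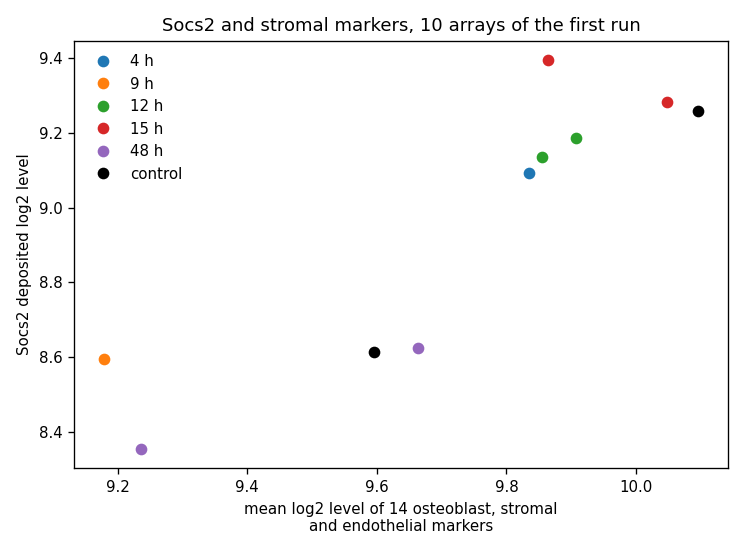
Socs2 log2 level against the mean log2 level of 14 osteoblast, stromal and endothelial markers, 1 point per array of the first run, coloured by time after phlebotomy with controls in black. The 4 lowest Socs2 arrays, between 8.35 and 8.62, are the 4 with marker means of 9.18 to 9.66.

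Socs1 (chr16:10783808-10785536), the inhibitor of interferon receptors, stayed near its control level. In the first run it read 8.05 and 8.27 in the controls, 8.18 at 4 h, 8.27 at 9 h, 8.02 and 8.17 at 12 h, 8.03 and 8.09 at 15 h and 8.11 and 8.22 at 48 h. In the second run it read 8.80 and 8.83 at 9 h, against 8.82 in the control. Its change ran from -0.12 ± 0.09 at 15 h to 0.05 ± 0.08 at 9 h, and the 95% interval for the mean of the middle times was -0.20 to 0.10.

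Socs4 (chr14:47276920-47296102) differed most at 4 h, where its level of 9.46 lay below the controls of the run at 9.67 and 9.79. That change was -0.28 ± 0.09 with an unadjusted p of 0.00908 and an adjusted p of 0.165. At all later times Socs4 lay between 9.74 and 9.83 in the first run, with changes of 0.01 to 0.06. All 3 arrays of the second run held the same Socs4 value of 10.26, so that run carried no information on a change. These arrays still entered the fit. A repeated value adds no spread, so the standard errors and p-values of Socs4 may be too small.

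Socs5 (chr17:87107278-87137647) ranged from 7.96 to 8.24 in the first run, with changes of -0.10 ± 0.09 at 48 h to 0.08 ± 0.08 at 9 h. Socs7 (chr11:97362292-97398542) ranged from 7.79 to 8.03 there, with changes of -0.08 ± 0.09 at 15 h to 0.10 ± 0.11 at 4 h. Their 95% intervals for the mean of the middle times were -0.16 to 0.13 for Socs5 and -0.18 to 0.12 for Socs7.

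Socs6 (chr18:88865169-88894364) had the largest SD within groups of the members that did not pass, 0.27 beside 0.23 for Socs2. Over the whole first run Socs2 had the wider range, 1.04 beside 0.78 for Socs6. The first-run level of Socs6 was 8.28 and 7.78 in the controls, 8.24 at 4 h, 8.19 at 9 h, 8.38 and 8.15 at 12 h, 7.95 and 8.11 at 15 h and 7.60 and 8.22 at 48 h. The lower of the 48 h arrays was the lowest of the run, and the changes ran from -0.15 ± 0.19 at 48 h to 0.21 ± 0.19 at 12 h. A pair of further Socs6 probe sets did not pass either.

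Among the genes that bring STAT5 to bear, none passed. Of 17 measured genes of the erythropoietin receptor and JAK-STAT chain limma called 0 in each of the 7 comparisons, with 1 to 4 per comparison at an unadjusted p under 0.05, beside 6.12% to 15.8% of all genes. Stat5a, which with Stat5b carries the signal to the Cish gene, changed by -0.07 ± 0.07 for the mean of the middle times (adjusted p = 0.741), and Stat5b by -0.01 ± 0.06 (adjusted p = 0.953). Jak2, the kinase on the receptor, changed by -0.15 ± 0.06 (adjusted p = 0.343) and Epor, the receptor, by -0.15 ± 0.12 (adjusted p = 0.654).

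Of 17 measured genes listed as STAT5 targets in blood cells, 5 were called higher and 0 lower against control when 9, 12 and 15 h were averaged, against 0.652% of all genes higher, and the median of the 17 was 0.08. They were Pim1, a survival kinase, Osm, the cytokine oncostatin M, Tfrc, the transferrin receptor, Podxl, a surface sialomucin, and Plek2, a cytoskeletal protein of erythroid cells. The target list was chosen with earlier results of these data known, so its counts are not independent of them and are given as description. Of those named, Pim1 and Osm had time courses like that of Cish. The first-run level of Pim1 was 9.92 and 10.23 in the controls, 10.62 at 4 h, 10.96 at 9 h, 10.78 and 11.02 at 12 h, 10.94 and 11.00 at 15 h and 10.26 and 10.09 at 48 h. The Pim1 change was 0.85 ± 0.08 for the middle times (adjusted p = 0.00124) and -0.76 ± 0.10 for 48 h relative to them (adjusted p = 0.00496). Osm changed by 0.60 ± 0.11 for the middle times (adjusted p = 0.0424), a call lost in 10 of 13 fits without 1 array, and by -0.51 ± 0.14 for 48 h relative to them (adjusted p = 0.106).

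Plek2 and Podxl had not returned by 48 h. Plek2 was 1.32 ± 0.10 above control for the middle times and still 1.22 ± 0.14 above it at 48 h (adjusted p = 0.00286). Podxl was 0.94 ± 0.09 above control for the middle times and 0.97 ± 0.12 above it at 48 h (adjusted p = 0.00639). Relative to the middle times the 48 h change was -0.10 ± 0.12 for Plek2 (adjusted p = 0.722) and 0.03 ± 0.11 for Podxl (adjusted p = 0.914), beside -1.50 ± 0.15 for Cish. Tfrc, named after its values were seen, rose by 0.46 for the middle times. At 48 h it was 0.42 above control (adjusted p = 0.175) and changed by -0.04 relative to the middle times (adjusted p = 0.885). At 4 h the targets called were Id1, a helix-loop-helix inhibitor, at 0.75, and Il2ra, an IL-2 receptor chain, at -0.74, which made 2 of 17 against 1.99% of all genes in either direction. Both 4 h calls were lost in some fits without 1 array, 6 for Id1 and 7 for Il2ra. Gfi1b, an erythroid repressor, was higher by 0.77 at 48 h than at the middle times.

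**Figure D4:**
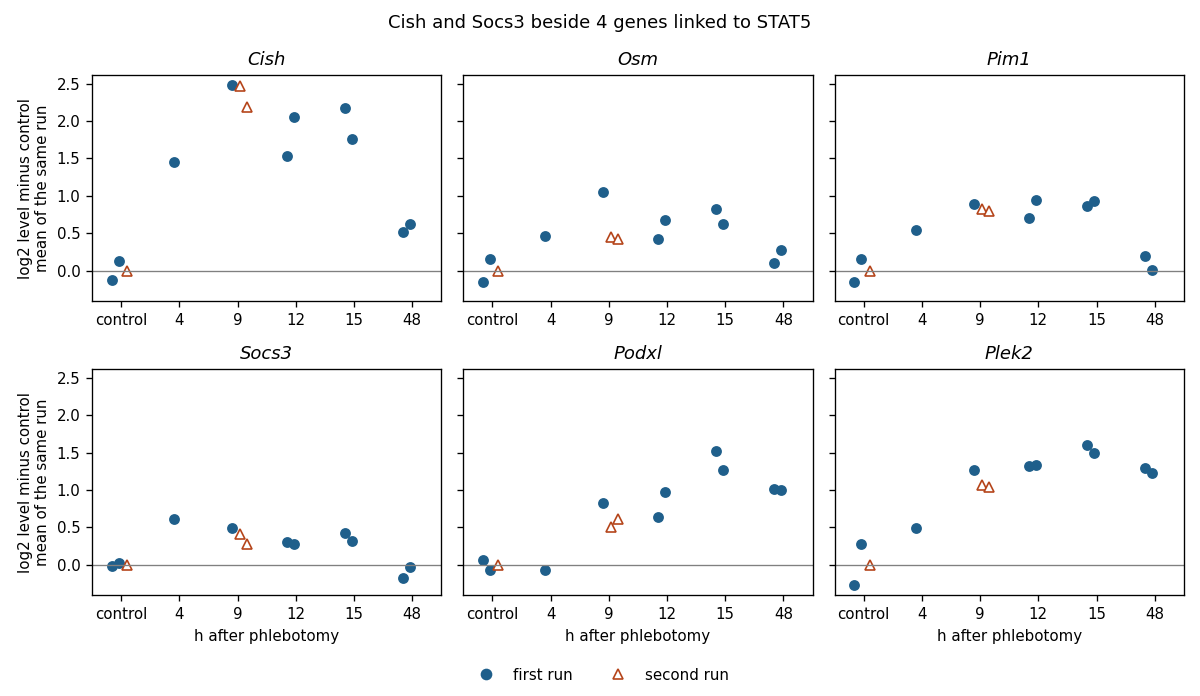
Log2 level minus the control mean of the same run on each array, by hours after phlebotomy, for Cish, Socs3 and 4 genes listed as STAT5 targets, Osm, Pim1, Podxl and Plek2. Filled circles are the first run and open triangles the second. Cish, Socs3, Pim1 and Osm are near 0 again or closer to it at 48 h, while Plek2 and Podxl stand about as high there as at the middle times.

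By the rule for likeness, the genes whose level followed Cish most closely over the 10 first-run arrays, of 3122 genes with an SD of at least 0.2, were Erfe (Pearson r 0.972), Osm (0.966) and Pim1 (0.951), followed by Map2k3os, Noct, Trim15, Tsc22d2 and Lipg (0.938 to 0.901). Erfe encodes erythroferrone, the erythroid hormone that lowers hepcidin. For Socs3 they were Hp, the plasma protein haptoglobin (0.925), Il1r2, the decoy receptor for IL-1 (0.888), Hopx (0.877), Ms4a4a, Il13ra1, Pla2g7, Dapl1 and Met (0.869 to 0.843). None of the 8 genes nearest to Cish was among the 8 nearest to Socs3, which says little, as lists this short out of 3122 genes seldom overlap. For Socs2, added after its values were seen, they were Sash1 (0.977), Mpzl1 (0.976), Raph1, Sec24d, Pdgfc, Cd200, Stk39 and Snx7 (0.970 to 0.960). The arrays share their groups and their normalization, so these values describe a common time course or a common array difference and nothing more.

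Few genes of the lists tied to the other members passed. Of 23 genes of the STAT3 and IL-6 family response, the setting of Socs3, 1 was called, Osmr, the oncostatin M receptor, at 0.92 ± 0.14 at 15 h (adjusted p = 0.0273) and 0.68 ± 0.10 for the middle times (adjusted p = 0.0145). Of all genes 0.211% were called higher at 15 h and 0.652% for the middle times. The list's median was 0.15 at 4 h and -0.12 for 48 h relative to the middle times. Of 21 interferon response genes, the setting of Socs1, 1 was called lower for the middle times, Ifit3, at -0.81 (adjusted p = 0.0314), against 0.787% of all genes in either direction. All 21 had fitted changes below 0 at 12, 15 and 48 h, with medians of -0.48, -0.25 and -0.29. Limma called 0 of them at those times, with 16, 5 and 11 at an unadjusted p under 0.05, beside 2735, 2500 and 2790 of all 19938 genes in either direction. These comparisons share their control arrays.

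Of 14 measured genes of the growth hormone and IGF axis, the setting of Socs2, limma called 0 in all 7 comparisons, with 1 to 2 per comparison at an unadjusted p under 0.05, beside 6.12% to 15.8% of all genes. Of 11 SOCS box ligase partners it also called 0, though all 11 had changes above 0 at 12 h and 15 h, with medians of 0.24 and 0.14 and with 7 and 2 at an unadjusted p under 0.05, beside 13.7% and 12.5% of all genes in either direction. Of 24 other negative regulators of cytokine signalling, such as phosphatases, PIAS and CBL proteins, it called 0 in all 7 comparisons, with 0 to 6 at an unadjusted p under 0.05, again beside 6.12% to 15.8% of all genes, and a median for the middle times of -0.03.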

How the data were processed

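Marrow RNA of 13 samples was hybridised to 1-colour arrays. The authors deposited log2 values, 1 column per array, which per the submitters' processing notes come from RMA; its version, and which arrays shared a normalization, are not given in the sources used here. Samples took their group from the time in its labels.

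The table has 35557 probe sets, of which 21789 have 1 gene symbol, 1621 several and 12147 none listed. Symbols were updated through Entrez identifiers (21698 probe sets), and 999 genes had several probe sets. From these, limma 3.58.1 in R 4.3.3 fitted 6 groups and a fixed term for the run of title numbers to all 13 arrays, with 6 residual and 4.62 prior degrees of freedom, over 19938 genes. There were 7 comparisons; another 7, between times, were added after the data were seen. The lone 4 h array borrowed its spread from the other groups. The fit was tested on simulated data with known changes and independent noise. Those data modelled no repeated values and no transcripts of other tissues, so they do not test the p-values for such features. Intervals are 95% and unadjusted. The number of arrays limits the precision.

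Named genes were all members, up to 4 called genes per comparison and pathway list (smallest p first), and for Cish and other members called in at least 2 comparisons with control the 8 genes with the highest correlation of level. The members and the 7 pathway and 10 marker lists, from textbook knowledge, were chosen with earlier results of these data known. Gene positions and promoters are from RefSeq (GRCm38.p6). Alternatives changed the run term, probe set choice, low-level filter, scaling and variance model, and left out each array. Figures used matplotlib 3.10.9 in Python 3.11.15.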

Additional observations from a re-analysis of the deposited data

Results flagged for a closer look

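The changes at 48 h differed from those at earlier times for 2 members, by a test of the difference itself in the same limma fit. For Cish the difference of 48 h from the mean of 9, 12 and 15 h was -1.50, that from 9 h -1.87, that from 12 h -1.23 and that from 15 h -1.41. For Socs3 the difference of 48 h from the mean of the middle times was -0.47 and that from 15 h was also -0.47. The differences from 9 and 12 h did not pass for Socs3 (adjusted p = 0.0548 and 0.119).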

How the results depend on the processing

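No paired analysis was possible because replicates were numbered by accession order and the labels give no number shared between groups. Of 1216 recomputed values of the members under 22 settings, in the comparisons with control and of 48 h with the middle times, 1188 kept their direction and side of the threshold, 23 lost their call, 5 gained one and 0 reversed. In the comparisons between single times 1175 of 1216 kept theirs, 30 lost a call, 11 gained one and 0 reversed; the losses were 7, 4 and 2 for Cish at 48 h relative to 12, 15 and 9 h and 17 for Socs3 at 48 h relative to 15 h. Cish against control kept its call in the 13 fits that left out 1 array at 9, 12 and 15 h and in the 12 possible at 4 h, and lost it at 4 h only without the run term (1.32, adjusted p = 0.378); the cause was not tested. Without the run term the median of all genes moved by -0.26 at 4 h, 0.27 at 9 h and -0.27 at 12 h.

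Members called, where the number moved: for the middle times 1 with the first run alone, with the mean over probe sets, without the run term, with quantile scaling and without 3 arrays together (4 h, 9 h replicate 1, 48 h replicate 1), an alternative chosen after seeing the data that kept 48 h replicate 2, also high in liver transcripts; for 48 h relative to those times 1 with the first run alone, mean probe sets or no run term and 0 without the 3 arrays, where Cish was -1.44 (adjusted p = 0.0558); at 4 h 1 with mean probe sets and 0 without the run term. Genes called were 21 at 12 h in the fit reported, and 59 without dim genes, 10 with the first run alone, 5 without the run term, 112 with the run as a random block, 65 with trend and robust variance and 7 without the 3 arrays. At 15 h, 51 became 22 (first run), 5 (no run term), 81 (random block) and 23 (without the 3 arrays). At 48 h, 75 became 17 (dim), 31, 11, 143, 134 (trend) and 24. For 48 h relative to the middle times, 195 became 57 (first run), 13, 335 and 23. At 4 h, 397 became 39 (dim) and 78 (no run term); at 9 h, 19 became 6 (no run term), 32 (random block) and 8; for the middle times, 157 became 259 (dim), 60, 8, 252, 243 (trend) and 59.

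Leaving out each array in turn gave 293 to 1359 genes and 2 to 3 members at 4 h, 5 to 75 and 1 to 1 at 9 h, 6 to 414 and 1 to 2 at 12 h, 6 to 505 and 1 to 2 at 15 h, 31 to 104 and 0 to 0 at 48 h, 31 to 340 and 1 to 2 for the middle times, and 32 to 502 and 1 to 3 for 48 h relative to them. The highest counts at 12 and 15 h came without control replicate 1. Signal on the second run is limited by repeated values. They may also make the estimated spread, and with it the p-values, too small.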
